A study of Mus musculus with 9 samples.

Results

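The stomach of C57 mice, which are inbred, was compared between the higher and the lower of the X-ray doses of the study, 12 Gy and 6 Gy. The comparison used 6 of the 9 arrays of the series, 3 per dose, and the group of each array was taken from its sample title. In every group the mice were anaesthetised with ketamine and xylazine, the dose was aimed at the stomach at 2 Gy per minute, and the tissue was taken 7 days later. The 3 mock arrays, from mice given 0 Gy, are quoted beside the irradiated values and added to the estimate of the spread. The labels give neither the age nor the sex of the mice. Each label describes tissue of 1 mouse, and whether any mice were pooled is not stated.

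The lining of the stomach is renewed from dividing progenitor cells in its glands, and ionising radiation damages DNA, which stops or kills dividing cells. The acid-secreting parietal cells and enzyme-secreting chief cells divide rarely and live much longer than the surface mucous cells. In whole tissue a lower signal can mean fewer cells of a type or less RNA per cell, which cannot be told apart here. The arrays carry probes for messenger RNA and for long non-coding RNA (lncRNA), transcripts that are not translated. The scanner files name each probe by an identifier and not by a gene, so the marker genes of parietal, chief and other stomach cells were not analysed here, and the labelled tissue was not checked against them. Probes were tied to genes only where all 60 bases lay, on either strand, within a RefSeq window around a gene start or within a microRNA hairpin (build GRCm38.p6).

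The sequences of some probes named below are printed first. In the main fit none of them passed after adjustment. The next 4 had the smallest unadjusted p among probes with higher signal (first pair) and lower signal (second pair) at 12 Gy, and no gene is paired with them.
mmu_15982_PI428960544: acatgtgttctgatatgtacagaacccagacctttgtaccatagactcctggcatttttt
mmu_6645_PI428960544: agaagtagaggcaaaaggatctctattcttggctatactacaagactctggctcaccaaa
A_55_P1993263: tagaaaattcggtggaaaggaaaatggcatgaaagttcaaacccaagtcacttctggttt
mmu_16072_PI428960544: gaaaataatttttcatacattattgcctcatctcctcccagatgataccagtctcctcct

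The following probes were those at gene starts with an unadjusted p under 0.05, together with a further probe at the start of Aak1 that overlaps the first. Capitals mark the 9 bases that both Aak1 probes cover on opposite strands and, in the Gm13421 probe, the bases from the gene start on.
Gm43305, mmu_22214_PI428960544: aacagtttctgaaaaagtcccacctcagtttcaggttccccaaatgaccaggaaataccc
Gm13421, A_30_P01030278: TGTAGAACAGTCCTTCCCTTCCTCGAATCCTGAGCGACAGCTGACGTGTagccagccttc
Aak1 opposite strand, A_30_P01025916: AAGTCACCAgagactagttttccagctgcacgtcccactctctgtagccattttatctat
Aak1 same strand, A_30_P01022260: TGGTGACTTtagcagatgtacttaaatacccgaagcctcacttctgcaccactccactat
Armh3, mmu_10382_PI428990136: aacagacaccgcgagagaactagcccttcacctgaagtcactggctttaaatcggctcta
Jak3, A_55_P2004099: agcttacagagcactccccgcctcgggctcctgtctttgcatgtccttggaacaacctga
Exoc7, A_55_P2183035: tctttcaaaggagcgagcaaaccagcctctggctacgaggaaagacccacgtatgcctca

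No probe separated the doses after correction for the number of probes tested. Levels are log2 signal relative to the 75th percentile of the same array, so 0 is the level of that percentile and 1 unit is a 2-fold step. A probe was tested where at least 1 dose had it well above background on its 3 arrays, and limma called 0 of 31102 such probes (0%) at a Benjamini-Hochberg adjusted p under 0.05. The lowest adjusted p of any probe was 0.988. Before adjustment 1065 probes had a p under 0.05, or 3.42%, with 451 (1.45%) higher and 614 (1.97%) lower at 12 Gy. Every 12 Gy array was above every 6 Gy array for 918 probes (2.95%) and below it for 1907 (6.13%), together 2825 probes or 9.08%. The balance of directions at an unadjusted p under 0.05 moved under some scalings and background corrections. When arrays were scaled to the median of commonly detected probes, 565 were higher and 481 lower at that unadjusted level, and after normexp background correction with an offset of 50 there were 432 and 391. Under the same 2 settings, 1205 and 1039 probes without overlap were higher, and 1492 and 1400 lower, so the lower side still led. Quantile normalization gave 367 higher and 508 lower at that unadjusted level, and 1041 higher and 1689 lower without overlap. The median probe differed by -0.029 between the doses. The counts also hung on single arrays and on their weighting. Without 6 Gy replicate 3 there were 2618 probes at that unadjusted level, without 6 Gy replicate 2 there were 452 and without 6 Gy replicate 1 there were 676. With array weights, which give each array its own precision, limma called 481 probes after adjustment.

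For most probes the fit set bounds on the difference between these groups of arrays. Slide was left out of that fit, and 6 Gy replicate 3 was the only 6 Gy array on the slide of the 12 Gy arrays. The intervals therefore cannot tell dose from slide. With slide as a random block, the fitted correlation of arrays within a slide was 0.27. The median standard error was 0.23 and the median half-width of the 95% interval was 0.52 log2 units. The whole interval lay within a 2-fold change in either direction for 24760 probes (79.6%), and within 4-fold for 30597 (98.4%). An interval within 1.5-fold was reached by 9922 probes (31.9%). The median size of the difference, without its sign, was 0.15, and 332 probes (1.07%) had a difference of 2-fold or more, 172 of them higher and 160 lower. The spread between arrays was alike at both doses, with a median SD of 0.23 each, and the SD was larger at 12 Gy for 50.9% of probes.

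**Figure D1:**
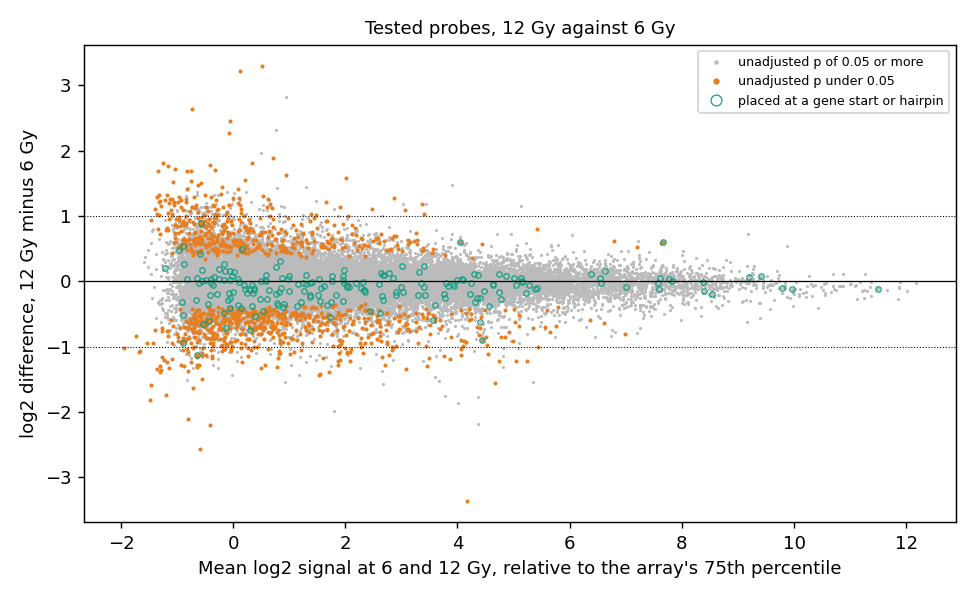
Difference between 12 Gy and 6 Gy (vertical axis, log2) against the mean log2 signal at both doses relative to the 75th percentile of each array (horizontal axis), 1 point per tested probe. Orange points have an unadjusted p under 0.05 (1065 of 31102), green circles are the 194 probes placed at a gene start or hairpin, and dotted lines mark 2-fold. The scatter is widest at low signal, and the median difference is -0.029.

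The probe with the smallest p was mmu_15982_PI428960544. It was at -0.08, -0.46 and -0.02 on 12 Gy replicates 1 to 3, and at -2.06, -1.59 and -2.06 on the 6 Gy replicates. On the mock arrays it was at -1.87, -1.13 and -1.38. All 12 Gy arrays were above all others, and only 1 of 3 arrays at 6 Gy and 1 of 3 in mock had the probe well above background. The probe thus entered the test through the 12 Gy arrays alone, and its 6 Gy values lay near the limit of detection. The fitted log2 difference between the doses was 1.72 with a standard error of 0.24 (limma, unadjusted p = 3.18e-05, adjusted p = 0.988), a size that leaned on those dim values.

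The probe mmu_6645_PI428960544 was at 1.98, 1.91 and 2.06 at 12 Gy. At 6 Gy it was at 0.78, 1.16 and 0.94, and in mock at 0.996, 0.91 and 0.92. The 6 Gy and mock arrays lay together and the 12 Gy arrays stood about 1 log2 unit above them, with every array well above background. The difference between the doses was 1.02 with a standard error of 0.16 (unadjusted p = 1.00e-04).

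In the other direction, A_55_P1993263 was at -1.89, -2.21 and -1.96 at 12 Gy, where Agilent's flag for signal well above background was set on none of the arrays. It was at -0.71, -0.49 and -0.83 at 6 Gy and at -1.33, -0.52 and -0.78 in mock. Its signal at 12 Gy was at least 2.39-fold lower than at 6 Gy. For that bound, each 12 Gy array entered with this probe's signal or with the dimmest signal well above background on the array, whichever was brighter. It held for this background correction only, since normexp with an offset of 50 gave a log2 difference of -0.33.

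The probe mmu_16072_PI428960544 was at 0.00, -0.23 and -0.49 at 12 Gy. It was at 0.77, 0.79 and 0.79 at 6 Gy and at 0.76, 0.47 and 0.84 in mock, so the 12 Gy arrays were again apart from both other groups. The difference between the doses was -1.02 with a standard error of 0.18 (limma, unadjusted p = 2.48e-04). Within the slide that held both doses, set against 6 Gy replicate 3 alone, the differences of these 4 probes were 1.88, 1.04, -1.19 and -1.03 in the order given. With normexp and an offset of 50 the values were 0.49 for the first, 0.72 for the second and -0.46 for the last.

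**Figure D2:**
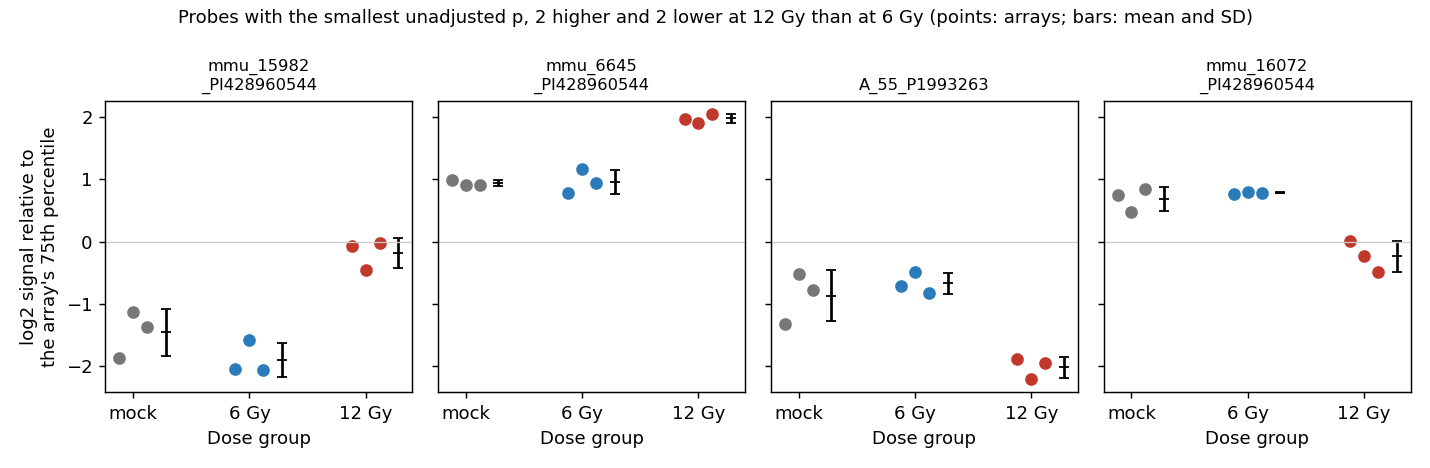
Signal of 4 probes (vertical axis, log2 scale against the array's own 75th percentile) on each mock, 6 Gy and 12 Gy array (points, 3 per group), with the mean and SD of each group as bars. The 12 Gy arrays lie apart from the 6 Gy and mock arrays for each of the 4 probes, for example between 1.91 and 2.06 for mmu_6645_PI428960544 against 0.78 to 1.16 at 6 Gy.

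Probes at gene starts gave the comparison gene names. Of the 91188 probes, 544 matched a window or hairpin over their full length and 510 of these matched 1 gene at 1 position. The windows, 32851 in number, reach from 250 bases before a gene's start to 50 bases after it. Whether a probe also matches elsewhere in the genome was not analysed here. Of the 510, 194 were tested, 191 in windows and 3 in hairpins, with 93 on the strand of the gene and 101 on the opposite strand. Transcription often starts in both directions at a promoter, and an antisense or divergent lncRNA is a transcript from the opposite strand there. A probe upstream of a start may therefore report a neighbouring or divergent transcript rather than the gene that names the window.

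None of the 194 passed limma's test after adjustment over all probes, and each named below had an adjusted p of 0.9999. There were 6 at an unadjusted p under 0.05 (3.09%, against 3.42% of all probes), 2 higher and 4 lower at 12 Gy. The doses did not overlap for 16 probes (8.25%, against 9.08%), 2 higher and 14 lower. The difference was below 0 for 126 of the 194 (64.9%) and for 55.9% of all tested probes, with medians of -0.072 and -0.029. That gap between the medians closed or grew with single arrays and settings. Without 12 Gy replicate 3 the medians were -0.031 and -0.043, and without 6 Gy replicate 3 they were -0.071 and -0.067. With array weights they were -0.021 and -0.033. The gap was wider without 12 Gy replicate 1, at -0.094 and -0.0028. It was wider too within the slide that held both doses, at -0.12 and -0.00073, where 6 Gy has replicate 3 alone. The placed probes also held more G and C bases, a median of 31 of 60 against 27, and base composition moved with the difference over all probes, as given below. Its part in the median of the placed probes was not tested.

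Aak1 encodes a kinase of the clathrin coat that acts in endocytosis. The probe on the strand opposite to it, at chr6:86849058-86849117 (minus strand, 226 to 167 bases before the start), lies within the span of the lncRNA gene 2610306M01Rik. It was at 4.20, 3.83 and 3.93 at 12 Gy, at 4.94, 5.30 and 4.43 at 6 Gy, and at 3.65, 4.63 and 4.45 in mock. All 12 Gy arrays were below all 6 Gy arrays, while the mock arrays spanned both. The difference was -0.90 with a standard error of 0.30 and a 95% interval from -1.56 to -0.24 (limma, unadjusted p = 0.0126), the smallest p among the placed probes. It was -0.44 against the single 6 Gy array of the same slide.

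The probe on the strand of Aak1, at chr6:86849109-86849168, shares 9 bases with it in reverse complement. It was much dimmer, at -1.07, -0.79 and -1.60 at 12 Gy and at -0.57, -0.78 and -0.56 at 6 Gy. In mock it was at -0.27, -1.02 and -0.52, values that spanned both doses. The doses did not overlap, by a narrow margin, and the difference was -0.52 (limma, unadjusted p = 0.0705). It was -0.29 without 12 Gy replicate 3. At 12 Gy it was well above background on 2 of 3 arrays, so only the 6 Gy arrays brought it into the test. Levels of different probes cannot be set against each other, so each of these is compared only with itself across arrays.

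Armh3 encodes an armadillo-like helical protein of the Golgi. Its probe lay opposite to the gene at chr19:45998654-45998713, within the lncRNA gene 4930505N22Rik. It was at -0.79, -0.80 and -2.01 at 12 Gy, at 0.03, 0.53 and -0.78 at 6 Gy, and at 0.23, -0.51 and -0.28 in mock. The dose groups met almost edge to edge, since 6 Gy replicate 3 stood just above the highest 12 Gy array. The difference was -1.13 with a standard error of 0.41 (limma, unadjusted p = 0.0199) and -0.42 within the shared slide. It was -0.72 without 12 Gy replicate 3 and -0.40 with normexp and an offset of 50. At 12 Gy only 2 of 3 arrays had the probe well above background, so it was tested through the 6 Gy arrays alone.

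Jak3 encodes the tyrosine kinase that carries signals of cytokine receptors with the common gamma chain in lymphocytes. The probe opposite to it, at chr8:71676294-71676353 (89 to 30 bases before the start), was at 2.07, 2.49 and 2.09 at 12 Gy. It was at 2.501, 2.72 and 2.79 at 6 Gy and at 2.48, 2.71 and 2.46 in mock. The highest 12 Gy array and the lowest 6 Gy array were all but level. The difference was -0.46 with a standard error of 0.18 (limma, unadjusted p = 0.0336) and -0.58 within the shared slide. Over the alternative settings it ran from -0.59 to -0.17.

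Exoc7 encodes a subunit of the exocyst, which tethers secretory vesicles to the plasma membrane. Its probe, on the strand of the gene at chr11:116306890-116306949, lies upstream of the start within the lncRNA gene Gm26730. It was at -0.17, -0.31 and -0.76 at 12 Gy, at -0.04, 0.39 and -0.13 at 6 Gy, and at 0.22, 0.13 and 0.26 in mock. Every 12 Gy array was below every 6 Gy and mock array. The difference was -0.49 with a standard error of 0.21 (limma, unadjusted p = 0.0429) and -0.29 within the shared slide. It was -0.32 without 12 Gy replicate 3. The probe was well above background on 2 of 3 arrays at 12 Gy, so it too was tested through the 6 Gy arrays alone.

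Among placed probes with higher signal at 12 Gy, the smallest p was at Gm43305, a lncRNA gene. Its probe, on the strand of the gene at chr14:54297587-54297646, lies 158 to 99 bases before the annotated start. It was bright, at 7.96, 8.21 and 7.72 at 12 Gy and at 7.69, 7.37 and 7.03 at 6 Gy, with 6.68, 6.86 and 7.52 in mock. Every 12 Gy array was above every 6 Gy and mock array. The difference was 0.60 with a standard error of 0.26 (limma, unadjusted p = 0.0457) and 0.94 within the shared slide. A further probe, mmu_9568_PI428960544, shares at least 30 bases with it and read a difference of 0.59 with a standard error of 0.25 (unadjusted p = 0.0422). Because they share sequence, these are repeat readings of 1 target.

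Gm13421 is another lncRNA gene. Its probe, opposite to the gene at chr2:27540415-27540474, was at 4.63, 4.32 and 4.08 at 12 Gy, at 3.55, 3.32 and 4.35 at 6 Gy, and at 4.06, 3.96 and 4.12 in mock. Replicate 3 at 6 Gy lay among the 12 Gy arrays. The mock mean of 4.05 lay between the means of 3.74 at 6 Gy and 4.34 at 12 Gy. The difference was 0.60 (limma, unadjusted p = 0.0469), but within the shared slide it was -0.0045, and without 6 Gy replicate 2 it was 0.40.

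The other placed probes named by rank did not reach an unadjusted p of 0.05. On the lower side were probes at Zfp938, which encodes a zinc finger protein (-0.71), and at Scaper, whose protein binds cyclin A at the endoplasmic reticulum (-0.74). Also lower in value were probes at Popdc2, a membrane protein of the Popeye family that binds cyclic AMP (-0.94), at Shoc2, a scaffold of Ras signalling (-0.65), and at the uncharacterised gene 4933433H22Rik (-0.52). At 12 Gy the Popdc2 probe was well above background on 1 of 3 arrays, and the probes at Zfp938 and Shoc2 on 2 of 3. These were tested through the 6 Gy arrays alone. Without 12 Gy replicate 3 the values were -0.26 for Popdc2, -0.22 for Shoc2 and -0.26 for 4933433H22Rik, and without 6 Gy replicate 2 that for Scaper was -0.34. Against the single 6 Gy array of the shared slide Scaper was at -0.049. The Shoc2 probe also lies in the span of Bbip1 and that of 4933433H22Rik in the span of the lncRNA gene Gm35551. On the higher side, the probe at Pappa2, a protease that cleaves insulin-like growth factor binding proteins, was at -0.54, -0.73 and -0.57 at 12 Gy. It was at -1.22, -1.09 and -1.16 at 6 Gy, without overlap. The mock arrays, at -0.44, -1.09 and -1.53, reached above the 12 Gy arrays and below the 6 Gy arrays. The Pappa2 probe was well above background on only 1 of 3 arrays at 6 Gy, so it was tested through the 12 Gy arrays alone. Its fitted difference was 0.54 (unadjusted p = 0.0564), and 0.14 with normexp and an offset of 50.

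The remaining probes with positive values overlapped between the doses. They were at Nfkbil1, an inhibitor-of-NF-kappa-B-like protein whose window also lies in the span of Atp6v1g2 (0.89), Dhps, deoxyhypusine synthase (0.50), Rfx4, a transcription factor (0.48), and Gdf1, a ligand of the TGF-beta family that shares its span with Cers1 (0.42). The Nfkbil1 value rested on 6 Gy replicate 2, at -2.62, and was 0.092 without it. Values for Otx2, a homeobox factor, Tmem181a, a transmembrane protein, and Pde8a, a cyclic AMP phosphodiesterase, were 0.32, 0.27 and 0.24. Without 6 Gy replicate 2 the values of these genes shrank too. They were then 0.18 for Dhps, 0.15 for Rfx4, 0.0086 for Gdf1, 0.049 for Otx2, 0.16 for Tmem181a and 0.045 for Pde8a. At 6 Gy the probes at Nfkbil1, Dhps, Rfx4, Gdf1 and Tmem181a were well above background on 2 of 3 arrays. Those probes were tested through the 12 Gy arrays alone.

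**Figure D3:**
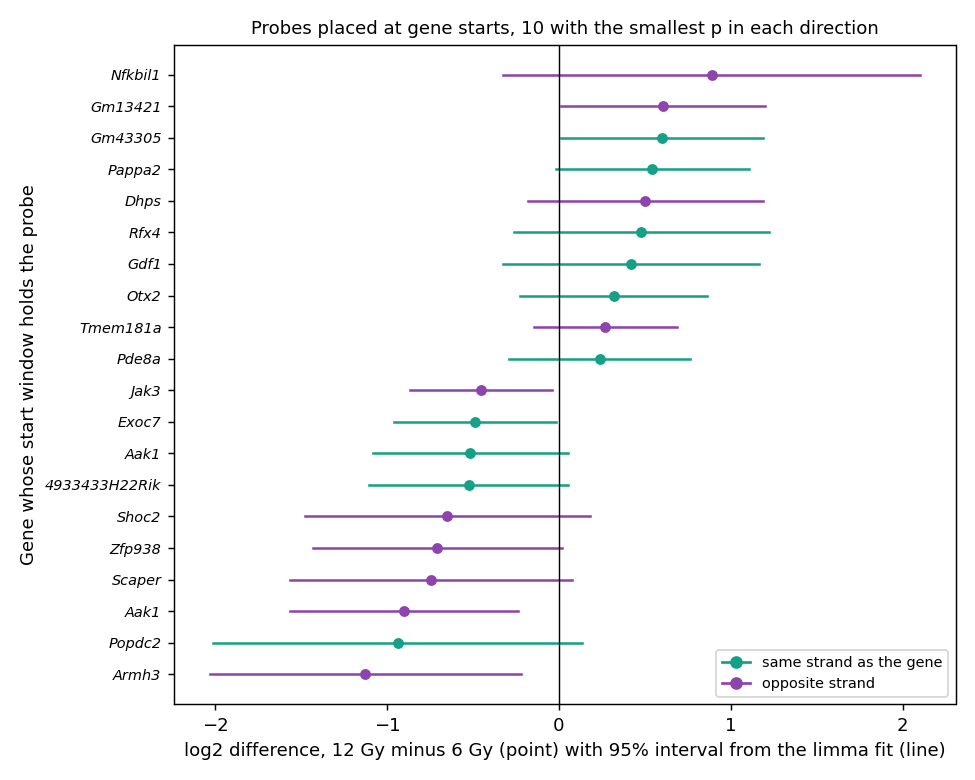
Log2 difference, 12 Gy minus 6 Gy, with its 95% interval from the limma fit (horizontal axis) for the 20 named probes at gene starts (vertical axis, by gene; Aak1 has a probe on each strand). Green marks probes on the strand of the gene and purple those opposite to it. The interval of 6 probes leaves out 0, and the values run from -1.13 at Armh3 to 0.89 at Nfkbil1, the latter resting on 6 Gy replicate 2.

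Some probes were well above background at only 1 of the doses. There were 43 detected on all 12 Gy arrays and on no 6 Gy array, with 62 the other way round. For the 43, the fold was at least 1.56 at the median and at least 2.60 at most, with 6 probes at 2-fold or more. In mock, 15 of the 43 were detected on no array and 2 on all 3. For the 62, a bound above 1 was available for 60, with a median of at least 1.52, a highest value of at least 2.45 and 10 probes at 2-fold or more. In mock, 8 of the 62 were detected on no array and 7 on all 3. Both sets were chosen by detection at these doses, so their folds describe them only, and they lay near the limit of detection. Each fold compares group means and takes no account of the spread between arrays.

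The likeness of the arrays did not follow dose alone. All 12 Gy arrays and 6 Gy replicate 3 were on the same slide, and 6 Gy replicates 1 and 2 were on another with 2 mock arrays. Pearson's r over the tested probes was 0.983 between 12 Gy replicates 1 and 2. It was 0.982 and 0.984 between 6 Gy replicate 3 and these 2 arrays, higher than the 0.968 and 0.958 between 6 Gy replicate 3 and the other 6 Gy arrays. Between 12 Gy replicate 2 and 6 Gy replicate 3 only 606 probes were 2-fold apart, against 2734 between 6 Gy replicates 2 and 3. Replicate 3 at 12 Gy correlated at 0.951 and 0.961 with its own group. Its r was 0.956 with 6 Gy replicate 3, on its slide, and 0.963 with each 6 Gy array of the other slide. These r describe probes within arrays that share a probe set, and probes are not independent replicates. The contribution of slide to the differences between the doses rests on 1 array and was not tested beyond the blocked values given.

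**Figure D4:**
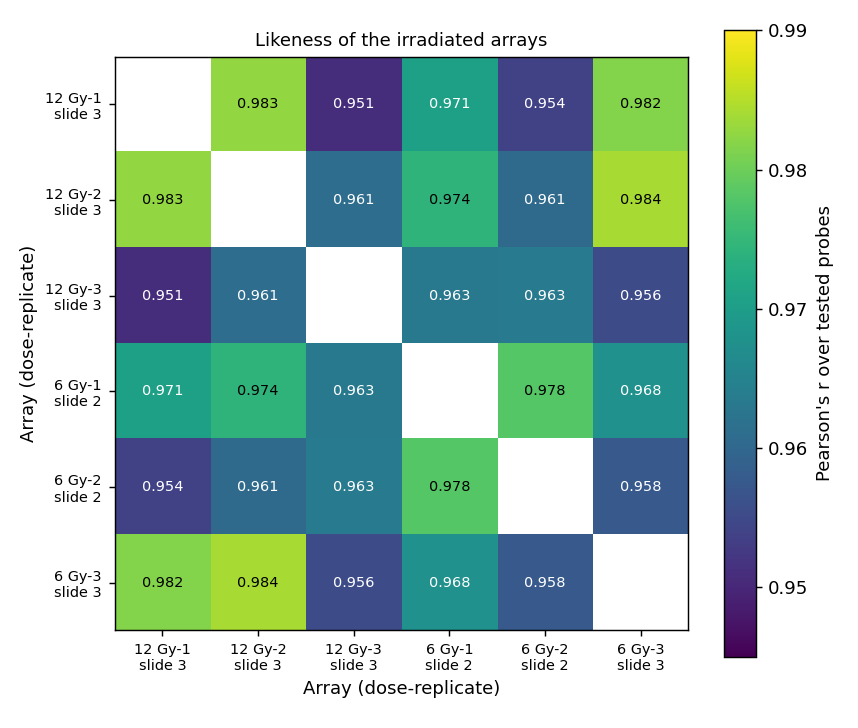
Pearson's r over 31102 tested probes for each pair of the 6 irradiated arrays (both axes, dose and replicate with slide number; the colour scale runs over r). The arrays 12 Gy-1, 12 Gy-2 and 6 Gy-3, all on slide 3, have the highest values, 0.982 to 0.984, and 12 Gy-3 stands at 0.951 to 0.963 with every other array.

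Replicate 3 at 12 Gy carried most of the large swings. Signal spanned at least 4 log2 units over the 6 irradiated arrays for 80 probes, chosen by that span, and 61 of them were highest on this array. Their median level was 4.30 there, and -0.19 and 0.29 on 12 Gy replicates 1 and 2. At 6 Gy the medians were 1.19, 2.02 and 0.17, and in mock 0.46, 2.34 and 0.26. Their spread within a dose was wide: the median standard error of the difference was 1.25. The files pair none of them with a gene, so the tissue or cell type that these probes read was not analysed here. Without this array limma called 2 probes between the doses at an adjusted p of 0.00447, A_55_P1982121 and A_55_P2070992. They were chosen after their values were seen, and their log2 differences were -2.58 and -2.59 without that array and -1.81 and -1.74 with it.

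**Figure D5:**
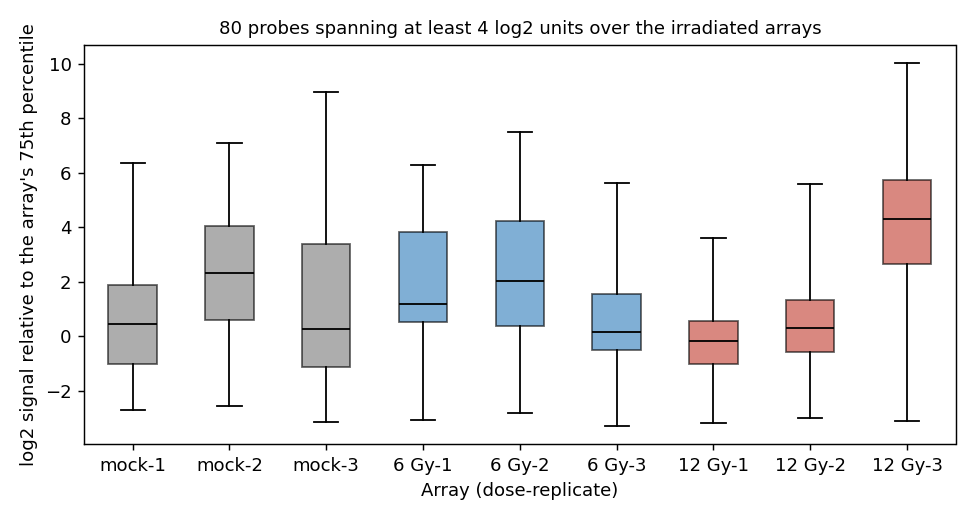
Signal of the 80 probes that spanned at least 4 log2 units over the irradiated arrays (vertical axis, log2 scale against the array's own 75th percentile) on each of the 9 arrays (horizontal axis, dose and replicate). Boxes show the quartiles with the median as a line, and whiskers reach the lowest and highest probe. The box of 12 Gy-3 stands highest with a median of 4.30, against -0.19 and 0.29 on the other 12 Gy arrays.

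The difference between the doses also moved with the base composition of the probe. The median difference was 0.091 for the 200 probes with up to 20 G or C bases of 60, 0.0073 for 12711 probes with 21 to 25, and -0.042 for 12730 with 26 to 30. It was -0.092 for 4801 probes with 31 to 35, -0.079 for 410 with 36 to 40 and -0.11 for 250 with more. At an unadjusted p under 0.05, 24 probes with 31 to 35 such bases (0.50%) were higher and 149 (3.10%) lower. With 21 to 25 such bases these were 248 (1.95%) and 164 (1.29%), and over all tested probes the shares were 1.45% and 1.97%. Within the shared slide the medians of these 6 classes were 0.047, 0.018, -0.0052, -0.023, -0.11 and -0.19 in the same order. The classes richest in G and C hung on 12 Gy replicate 3. Without it the median was -0.035 with 36 to 40 such bases and -0.044 with more, against -0.043 over all probes. With array weights these medians were -0.035 and -0.0078, against -0.033. Under each scaling tried, probes with up to 20 such bases kept a positive median and those with 31 or more a negative one. Without the filter on dim probes the class with up to 20 turned to -0.014, over 1470 probes.

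Control measures did not separate the doses. The spots for Gapdh, a glycolytic enzyme, were at 8.78 ± 0.36 at 12 Gy and 8.84 ± 0.12 at 6 Gy for the 5′ set (SD, n = 3 each), with a two-sided exact permutation p of 0.8. For Pgk1, which acts in the same pathway, the 3′ set was at 5.57 ± 0.30 and 5.53 ± 0.15 (SD, n = 3 each, exact permutation p = 1). The 3′ minus 5′ difference of Gapdh, which moves with RNA integrity, was -1.61 ± 0.11 and -1.62 ± 0.29. On 6 Gy replicates 1 to 3 it was -1.48, -1.44 and -1.95, and that of Pgk1 was 1.79, 1.89 and 1.95. Replicate 3, with the lowest Gapdh value, is the only 6 Gy array behind the values within the shared slide. Well above background were 36.5% ± 0.467 of probes at 12 Gy and 36.3% ± 3.42 at 6 Gy (SD), and the 75th percentile of intensity was 70.2 ± 6.83 and 64.4 ± 5.15. Over the 8 such measures compared, every Benjamini-Hochberg adjusted p was 1, and the smallest p that 3 arrays against 3 allow is 0.1.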

How the data were processed

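Total RNA of mouse stomach was amplified into cRNA labelled with Cy3 and hybridised to 1-colour Agilent arrays, per the labels' protocols. Agilent Feature Extraction 10.7.1.1 gave the spot values, per the submitters' processing notes, and the deposited scanner values are background-subtracted, linear intensity. The authors' deposited table holds log2 values with near-equal medians on every array (3.99); its making is not given in the sources used here. It was an alternative only.

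Each array held 143286 non-control spots for 91188 probes of 60 bases. Log2 intensity was taken relative to the array's 75th percentile (58.9 to 76.7 on the irradiated arrays), 183 outlier spots over all arrays were left out, and spots were averaged by probe. A probe was well above background where a share of 0.5 or more of its spots had Agilent's flag for it. The number of arrays limits the precision. limma 3.58.1 in R 4.3.3 was fitted over all 9 arrays with a mean per dose, and p-values were adjusted over all tested probes (Benjamini-Hochberg). Probes were named as the 10 smallest p per direction among those placed at a gene, and 2 per direction among the others. The fit was tested on simulated data. A limma p-value sets the difference of group means against the spread between these samples, with an estimate that borrows from all tested probes. Slide was not in the main fit.

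Members and lists were chosen with earlier results of these data known. Of 380 genes in 29 planned lists only 1 had a placed probe, and it was not tested, so the lists were not analysed here. Alternatives covered background, scaling, filters, slide, replicate blocks, variance models and leaving out arrays.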

Additional observations from a re-analysis of the deposited data

How the results depend on the processing

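Array weights were the setting with by far the most calls: limma called 481 probes (244 higher and 237 lower at 12 Gy), and 7102 had an unadjusted p under 0.05. That fit gave the 4 unplaced probes named above an adjusted p of 0.0336, and the Aak1 probe on the opposite strand one of 0.0373. Using only the slide with both doses called 1 probe, A_55_P2011672, named after its values were seen (log2 difference 5.40 there and 3.29 over all arrays). Leaving out 1 array at a time called 0 to 2 probes. Between 452 and 2618 probes then had an unadjusted p under 0.05: 2618 (1491 higher, 1127 lower) when 6 Gy replicate 3 was left out, 452 for 6 Gy replicate 2 and 676 for 6 Gy replicate 1. Probes without overlap then numbered 2825 to 9094, and 4337 or more with any irradiated array left out, where fewer arrays make separation easier. At that unadjusted level there were 2167 of 91188 probes without the filter on dim probes, against 1065 of 31102 in the main fit. Slide as a random block left 595, and scaling to the E1A spike-in probes (chosen after seeing the data) left 642. Of the 1065, 195 also differed by 2-fold or more. Without the filter 6021 of the 91188 probes did not overlap, against 2825 of 31102 in the main fit. Both unfiltered counts are thus larger counts but smaller shares of the probes tested. Same-numbered arrays of the doses did not deviate together (correlations of their deviations 0.0015, -0.24 and -0.36). The replicate block, a fit that pairs arrays by number, called 0 probes and left 961 with an unadjusted p under 0.05. A fixed block for slide also called 0 and left 1044 (550 higher, 494 lower), and quantile normalization gave 875 (367 and 508). Within the shared slide, which the fixed slide block equals, the sign turned at Gm13421 (-0.0045), Dhps (-0.096), Nfkbil1 (-0.017), Rfx4 (-0.033), Gdf1 (-0.30) and Pde8a (-0.19). The cause of these moves was not tested. Of the values of named probes under all alternatives, 545 kept their direction and side of the threshold, 12 turned and 5 passed it. Fits with a replicate block, a variance trend, other filters, fewer mock arrays or none left each difference as it was. Those could not turn a sign, yet they count among the 545. The 12 are the probes whose sign turned within the shared slide, each counted again under the fixed slide block. The planned averaging of probes per gene was not run, and non-overlap within the shared slide was not counted, since it holds 1 array at 6 Gy.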

Other observations

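Some probes share sequence. Among tested probes, 2490 pairs shared at least 30 bases on the same strand, and their differences between the doses correlated at r = 0.47 across pairs, which are not independent. In 93 of these pairs at least 1 probe had an unadjusted p under 0.05, and in 78 of the 93 the partner had the same sign. These pairs were chosen on that p, and the median difference was 0.65 for the probe with the smaller p and 0.22 for its partner in that direction. For 565 pairs sharing as many bases on opposite strands, r was 0.17, and the sign was shared in 15 of the 20 chosen likewise. For probes with repeated spots, 13247 in number, the median SD was 0.21 between spots of an array and 0.27 between arrays of a dose.

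The probes fall into series by name. The A_30 probes, 4675 tested, had a median difference of -0.066, and the median over all tested probes was -0.029. The 8563 mmu probes had a median of -0.0097. The A_30 median turned to the other side of that of all probes with array weights (-0.025 against -0.033). It did so too without 12 Gy replicate 3 (-0.024 against -0.043) and without 6 Gy replicate 3 (-0.061 against -0.067). The gap grew within the shared slide (-0.105 against -0.00073) and without 12 Gy replicate 1 (-0.079 against -0.0028).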
